A study of Mus musculus with 24 samples.

Results

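The genes described here are 10 that encode proteins of the basement membrane: the laminin α chains Lama2, Lama4 and Lama5, the β chains Lamb1 and Lamb2, the γ chain Lamc1, the nidogens Nid1 and Nid2, the proteoglycan perlecan (Hspg2) and the matricellular protein Sparc. They were taken by gene symbol, 10 of the 24825 genes listed, and all 10 were present. The set was chosen with earlier results of these data known. RNA was sequenced from inguinal stromal vascular cells of Nfia flox/flox mice (exon 2 of Nfia floxed) that had been immortalised with SV40 large T antigen, so that every group shares the floxed background, the immortalisation and, as far as the labels say, the preparation. There were 4 cell types: ctrl with empty retroviral vectors, Cre with a Cre retrovirus, Cre_NFIA with Cre and full-length NFIA, and Cre_deltapro#3 with Cre and the NFIA Δpro#3 mutant, which lacks a C-terminal proline-rich segment. The last of these are written Cre + NFIA and Cre + Δpro#3 below. Each was sampled at day 0 and at day 7 of differentiation towards thermogenic adipocytes, started with a hormonal cocktail that included rosiglitazone, with 3 libraries in each of the 8 groups. No source used here says that the 3 libraries of a group came from separate cultures, so p-values measure only the spread between these samples.

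Basement membranes are thin sheets of matrix that surround adipocytes, muscle fibres and blood vessels. Laminins are heterotrimers of 1 α, 1 β and 1 γ chain that polymerise on the cell surface; nidogens and perlecan tie the laminin network to a second network of type IV collagen, and cells bind laminin through integrins and dystroglycan. The α chain sets which receptors a laminin binds. Mature adipocytes are enclosed by a basement membrane whereas their fibroblast-like precursors lie in an interstitial matrix, and laminin α4 is a known α chain of adipose tissue.

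Values are FPKM, fragments per kilobase of transcript scaled to a fixed number of mapped reads, so levels of different genes can be compared per length. Libraries held 7.73 M to 14.6 M counted reads. The floxed gene itself did not separate the libraries labelled Cre from ctrl at the level of the whole gene: for Nfia, day 0 FPKM ran from 6.23 to 6.75 for ctrl and from 5.34 to 6.81 for the libraries labelled Cre, and its day 7 FPKM from 9.15 to 9.81 and from 9.49 to 10.7. A whole-gene value cannot check the loss of 1 exon. The paper treats the Cre-expressing cells as NFIA knockout cells and reports efficient recombination by PCR of genomic DNA. It also reports near-complete loss of NFIA mRNA by RT-qPCR and of NFIA protein by Western blot. Those measurements are not part of the values used here, and these libraries are therefore called by their label throughout. In both rescue cell types Nfia was at 59.7 FPKM or more in every library. The 6 endothelial genes summed to 1.55 to 10.2 FPKM. Of these, Pecam1, Cdh5, Tie1 and Emcn were under 1 FPKM in every library, whereas Tek and Kdr were not. Group means of Tek ran from 2.09 to 6.65 FPKM on day 0 and from 0.728 to 1.88 FPKM on day 7. Those of Kdr ran from 0.304 FPKM (ctrl, day 7) to 3.52 FPKM (full-length NFIA, day 0). The 4 epithelial genes summed to at most 0.311 FPKM, the 4 Schwann cell genes to at most 2.32 FPKM, and the 5 macrophage genes to 4.46 to 13.6 FPKM, with Ptprc and Adgre1 near or at 0 in every library. The 3 macrophage genes tested, Cd68, Csf1r and Lyz2, were all higher in Cre + Δpro#3 than in Cre + NFIA at day 7. Of all genes tested, 40.4% passed as higher in that comparison, and mean Csf1r was low, at 1.29 against 0.134 FPKM. Of the 6 mural genes Rgs5 was under 1 FPKM in every library. Their sum at day 7 ran from 178 to 216 FPKM for ctrl, 260 to 329 FPKM for the libraries labelled Cre, 108 to 126 FPKM for Cre + NFIA and 336 to 389 FPKM for Cre + Δpro#3. This sum was mostly Acta2 and Pdgfrb, and Pdgfrb is also among the stromal markers. Of the 5 mural genes tested, 3 were higher and 2 lower in the libraries labelled Cre than in ctrl at day 7 (36.1% and 22.7% of all genes). Those lower were Cspg4 (means 0.221 against 0.924 FPKM) and Myh11 (0.683 against 2.78 FPKM). The 6 adipocyte markers (the adipokine Adipoq among them) summed to 66.4 to 108 FPKM over all day 0 libraries, and at day 7 to 21300 to 24710 FPKM in ctrl, 4277 to 9186 FPKM in the libraries labelled Cre, 19810 to 20060 FPKM with full-length NFIA and 814 to 2066 FPKM with Δpro#3. The 6 stromal markers summed to 2719 to 3291 FPKM at day 0, and at day 7 to 878 to 956, 1847 to 2123, 784 to 878 and 2025 to 2393 FPKM in the same order. The day 0 sums hide differences between single markers. Against ctrl, 3 of the 6 were lower and 0 higher in the libraries labelled Cre at day 0 (1.7% and 1.63% of all genes). Mean Pdgfra was 74.1 against 135.6 FPKM there. In Cre + NFIA against the libraries labelled Cre, 3 were higher and 2 lower at day 0 (14.7% and 12.9%). In bulk samples, fewer cells of a type and less RNA per cell cannot be told apart, and the part of these marker levels in the results below was not tested.

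All 10 genes were expressed, over a wide range of levels. In ctrl at day 0, Sparc was highest at 1464 ± 49.2 FPKM (SD, n = 3), followed by Hspg2 at 267 ± 34.0, Nid1 at 190 ± 1.45, Lamc1 at 78.1 ± 0.861, Lamb2 at 62.8 ± 6.34, Lamb1 at 56.8 ± 2.71, Nid2 at 17.4 ± 1.21, Lama4 at 13.8 ± 0.440, Lama5 at 2.61 ± 0.266 and Lama2 at 1.82 ± 0.114 FPKM. Lamb1 and Lamb2 overlapped in this group. The α chains were thus the scarcest laminin transcripts per length in undifferentiated cells. Over all 24 libraries the ratio of the highest to the lowest FPKM was largest for Lama4, at 17.4, followed by Lama5 at 5.98, Lama2 at 5.27 and Nid2 at 5.15, and smallest for Nid1, at 1.44. Each gene had at least 1 FPKM in all 24 libraries, except Lama2, which reached it in 12, with 46 to 287 reads per library behind its values. All 10 passed the filter for testing.

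**Figure D1:**
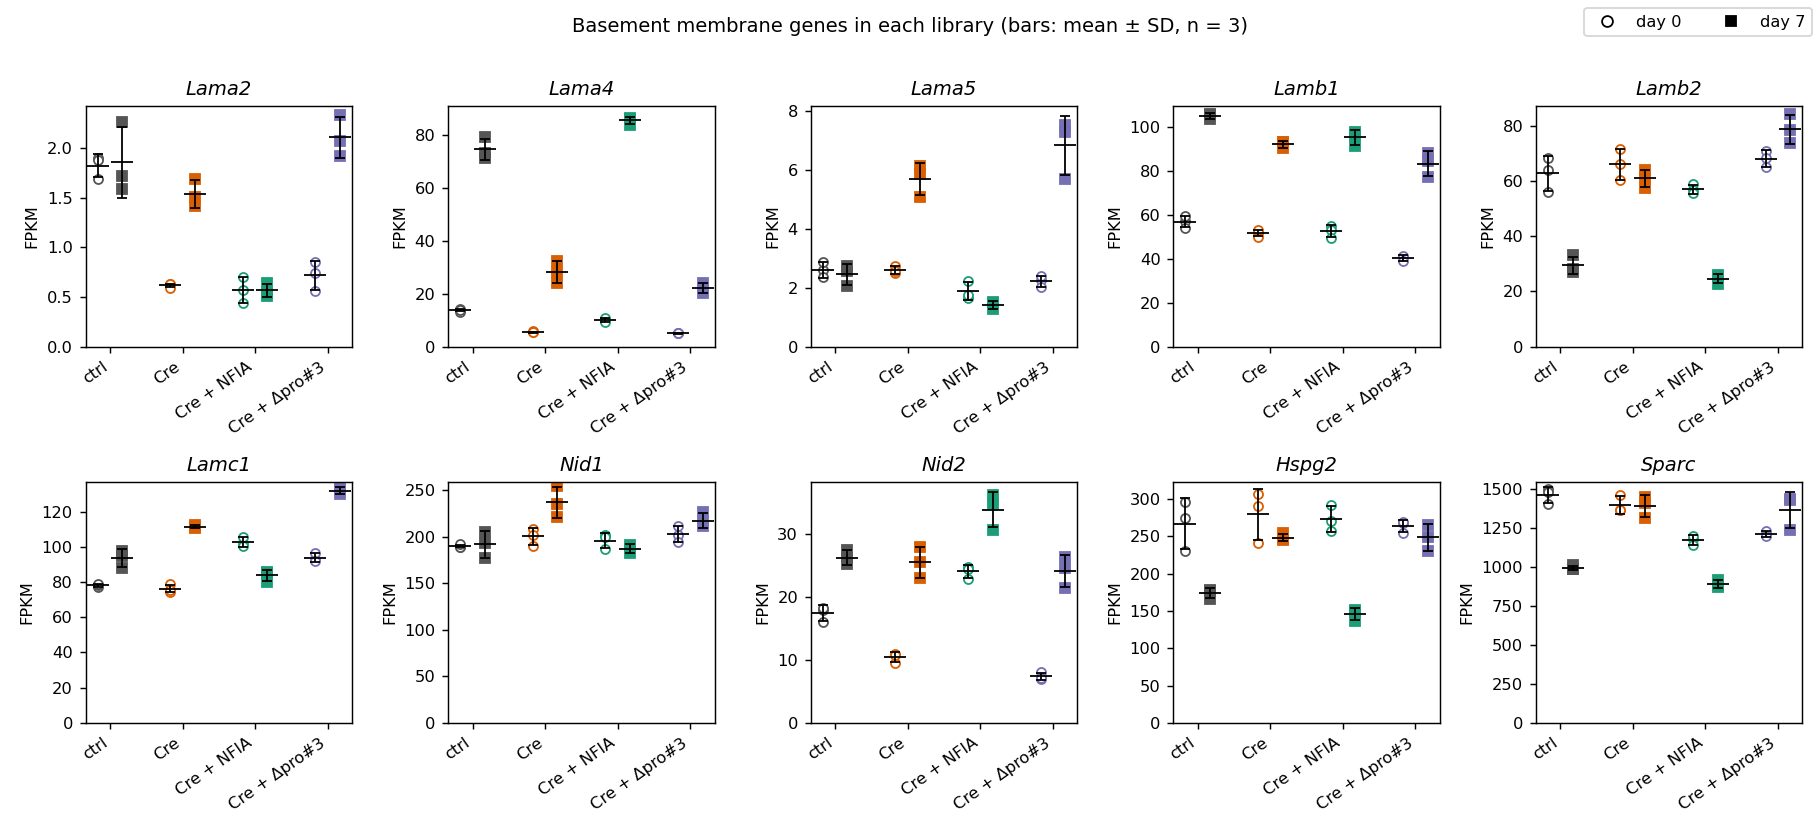
FPKM of each of the 10 genes (vertical axis, linear from 0) in each library of the 4 cell types; open circles are day 0, filled squares day 7, and horizontal marks with bars are the mean ± SD of 3 libraries. Lama4 stands at 71.7 to 86.7 FPKM in ctrl and Cre + NFIA at day 7 and at 32.4 FPKM or less in every other library, while Lamb2 is at 33.2 FPKM or less in those same 6 libraries and at 55.5 FPKM or more in the rest.

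Lama4, the α chain of adipose and vascular laminins, rose with differentiation in all 4 cell types. Ctrl gave 13.3, 14.1 and 13.98 FPKM before differentiation and 73.4, 71.7 and 79.3 FPKM on day 7. The libraries labelled Cre held 5.73, 5.37 and 5.38 FPKM and then 28.4, 32.4 and 24.01 FPKM. Cre + NFIA went from 9.99, 10.9 and 9.40 FPKM to 86.3, 84.1 and 86.7 FPKM, and no day 7 library of any of these cell types overlapped its day 0 libraries. Cre + Δpro#3 went from 5.25, 5.01 and 4.97 FPKM to 20.1, 24.04 and 22.4 FPKM. The ratio of the day 7 to the day 0 mean was 5.43 in ctrl, 5.14 in the libraries labelled Cre, 8.49 in Cre + NFIA and 4.37 in Cre + Δpro#3. On the log2(FPKM + 1) scale, on which all tests were made, the changes were 2.36 ± 0.0799 (SE), 2.16 ± 0.0799, 2.97 ± 0.0799 and 1.93 ± 0.0799, with limma adjusted p-values of 7.78e-16, 1.86e-14, 2.33e-17 and 1.58e-13.

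Lama4 was already lower in the libraries labelled Cre than in ctrl at day 0, by a log2 fold change of -1.19 ± 0.0624 (limma adjusted p = 1.97e-05, ratio of means 0.399), and it was lower by about as much at day 7 (-1.38 ± 0.0934, adjusted p = 6.56e-07, ratio 0.378). The interval of the difference between the 2 days ran from -0.43 to 0.04 (adjusted p = 0.161), and it passed as lower with a pseudocount of 5 (-0.43, adjusted p = 0.000921) and with median-of-ratios scaling (-0.32, adjusted p = 0.0295). With full-length NFIA it was higher than in the libraries labelled Cre, 1.84-fold by the means at day 0 (0.77 ± 0.0624, adjusted p = 9.35e-06) and 3.03-fold at day 7 (1.58 ± 0.0934, adjusted p = 6.98e-08), and the increase was larger at day 7 by 0.81 ± 0.113 (adjusted p = 5.68e-06). Against ctrl, Cre + NFIA was lower at day 0 (-0.42 ± 0.0624, adjusted p = 0.000557) and did not pass at day 7 (interval -0.01 to 0.40, adjusted p = 0.175). With the Δpro#3 mutant, Lama4 did not pass against the libraries labelled Cre at day 0 (interval -0.23 to 0.04) and passed narrowly as lower at day 7 (-0.33 ± 0.0934, adjusted p = 0.0308), with 20.1 to 24.04 against 24.01 to 32.4 FPKM. That call was lost without Cre replicate 1 (adjusted p = 0.0904), Cre replicate 2 (0.119), Cre + Δpro#3 replicate 1 (0.127) or Cre + Δpro#3 replicate 3 (0.0606). Without Cre replicate 2 at day 7 the difference between days of Cre against ctrl passed (-0.30, adjusted p = 0.0212). Between the rescue cell types, Lama4 was lower with Δpro#3 at both days, at -0.87 ± 0.0624 at day 0 (adjusted p = 1.01e-05) and -1.91 ± 0.0934 at day 7 (adjusted p = 9.47e-09).

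Lama5, the α chain found in most mature epithelial and vessel basement membranes, had the opposite order of cell types to Lama4 at day 7. On day 0 its FPKM was 2.60, 2.35 and 2.88 for ctrl, 2.497, 2.75 and 2.58 in the libraries labelled Cre, 2.22, 1.67 and 1.74 in Cre + NFIA and 2.25, 2.39 and 2.03 in Cre + Δpro#3. On day 7 its FPKM was 2.75, 2.55 and 2.06 for ctrl, 5.87, 5.08 and 6.15 in the libraries labelled Cre, 1.51, 1.26 and 1.495 in Cre + NFIA and 7.54, 7.29 and 5.69 FPKM in Cre + Δpro#3. The day 7 libraries thus fell into a low pair of cell types, ctrl and Cre + NFIA, and a high pair, and the low pair did not overlap the high pair. Lama5 rose between days in the libraries labelled Cre (0.89 ± 0.105, adjusted p = 4.67e-07) and in Cre + Δpro#3 (1.28 ± 0.105, adjusted p = 4.22e-09), and did not pass in ctrl (interval -0.29 to 0.15). At day 7 it was higher in the libraries labelled Cre than in ctrl (0.96 ± 0.114, adjusted p = 2.22e-05, ratio 2.32) and lower in Cre + NFIA than in those (-1.47 ± 0.114, adjusted p = 4.91e-07, ratio 0.25). Cre + Δpro#3 did not pass against the libraries labelled Cre (interval -0.03 to 0.47, adjusted p = 0.211) and was 4.81-fold above Cre + NFIA (1.69 ± 0.114, adjusted p = 8.62e-08). At day 0 Lama5 passed as lower in Cre + NFIA, at -0.33 ± 0.0911 against the libraries labelled Cre (adjusted p = 0.0202), a call that was lost without Cre replicate 2 (0.0631), Cre + NFIA replicate 2 (0.0782) or replicate 3 (0.0694).

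Lama2, the α chain of muscle and peripheral nerve laminins, was the scarcest member. On day 0 ctrl held 1.90, 1.88 and 1.69 FPKM, against 0.628, 0.626 and 0.593 FPKM in the libraries labelled Cre. Both rescue cell types were as low, at 0.442 to 0.698 FPKM with full-length NFIA and 0.556 to 0.851 FPKM with Δpro#3, so that ctrl stood above the other 9 day 0 libraries. The log2 fold change of the libraries labelled Cre against ctrl was -0.80 ± 0.0841 (adjusted p = 0.000824, ratio of means 0.338). On day 7 ctrl held 2.26, 1.59 and 1.71 FPKM and the libraries labelled Cre 1.502, 1.42 and 1.69 FPKM, which overlapped. Cre + Δpro#3 was at 1.92, 2.07 and 2.33 FPKM, and Cre + NFIA had stayed at 0.544, 0.512 and 0.641 FPKM, below every other day 7 library. Lama2 rose between days in the libraries labelled Cre (0.65 ± 0.0988, adjusted p = 1.31e-05) and in Cre + Δpro#3 (0.86 ± 0.0988, adjusted p = 5.37e-07), with intervals of -0.20 to 0.22 in ctrl and -0.21 to 0.20 in Cre + NFIA. Full-length NFIA against the libraries labelled Cre gave -0.70 ± 0.106 at day 7 (adjusted p = 0.000115). Values under 1 FPKM make these fold changes smaller on the log2(FPKM + 1) scale than the ratio of the FPKM values, 0.368 here.

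The β chains differed from each other. Lamb1, the β chain of early and widespread laminins, rose in every cell type, with mean FPKM from 56.8 ± 2.71 to 105 ± 1.26 in ctrl, 51.5 ± 1.47 to 92.0 ± 1.61 in the libraries labelled Cre, 52.5 ± 2.78 to 95.1 ± 3.34 in Cre + NFIA and 40.1 ± 1.29 to 83.2 ± 5.50 in Cre + Δpro#3. Its log2 changes between days were 0.87 ± 0.0509, 0.82 ± 0.0509, 0.85 ± 0.0509 and 1.03 ± 0.0509, with adjusted p-values from 1.82e-12 to 3.54e-11. Differences between cell types were small: at day 7 Lamb1 was lower in the libraries labelled Cre than in ctrl (-0.19 ± 0.0519, adjusted p = 0.0087) and did not pass in Cre + NFIA against the libraries labelled Cre (interval -0.07 to 0.16). The first of these calls was lost with quantile normalization (-0.04, adjusted p = 0.527). At day 0 Lamb1 was lower with Δpro#3, by -0.35 ± 0.0504 against the libraries labelled Cre (adjusted p = 0.00097) and -0.38 ± 0.0504 against Cre + NFIA (adjusted p = 0.000641).

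Lamb2, the β chain of mature muscle, vessel and kidney basement membranes, fell with differentiation in ctrl and Cre + NFIA. Ctrl went from 64.0, 56.0 and 68.5 FPKM to 33.2, 28.0 and 27.1 FPKM. Cre + NFIA went from 58.9, 56.9 and 55.5 FPKM to 26.1, 22.8 and 25.2 FPKM. The libraries labelled Cre kept 61.4, 57.6 and 64.0 FPKM at day 7 after 60.5, 66.2 and 71.6 FPKM at day 0, and these groups overlapped. Cre + Δpro#3 went from 71.1, 68.3 and 65.0 FPKM to 78.6, 84.2 and 73.7 FPKM. The changes between days were -1.07 ± 0.0818 in ctrl (adjusted p = 2.08e-10) and -1.18 ± 0.0818 in Cre + NFIA (adjusted p = 4.1e-11), while the interval in the libraries labelled Cre was -0.28 to 0.06. The rise of 0.21 ± 0.0818 in Cre + Δpro#3 had an adjusted p of 0.0484 and was lost without any 1 of 5 of its 6 libraries, all but replicate 3 of day 7 (adjusted p from 0.0536 to 0.176), and with 4 of the 7 alternative settings. At day 7 Lamb2 was 2.07-fold higher in the libraries labelled Cre than in ctrl (1.03 ± 0.0815, adjusted p = 1.45e-06), lower in Cre + NFIA than in those (-1.27 ± 0.0815, adjusted p = 1.19e-07), and higher in Cre + Δpro#3 than in those (0.36 ± 0.0815, adjusted p = 0.00986). Between the rescue cell types it was 3.19-fold higher with Δpro#3 (1.64 ± 0.0815, adjusted p = 1.07e-08). At day 0 none of the 5 comparisons between cell types passed for Lamb2, with the largest difference 0.25 ± 0.077 for Cre + Δpro#3 against Cre + NFIA (adjusted p = 0.0686, but 0.0259 with voom on the recovered reads); Cre + NFIA against the libraries labelled Cre, -0.21, passed with voom (0.0464), with quantile normalization (0.0366) and without Cre replicate 1 (0.0329).

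Lamc1, the γ chain shared by most laminins, varied 1.79-fold from the lowest to the highest library, against 3.69-fold for Lamb2 and 5.98-fold for Lama5. Its mean FPKM at day 0 was 78.1 ± 0.861 in ctrl, 76.3 ± 2.21 in the libraries labelled Cre, 103 ± 2.80 in Cre + NFIA and 93.8 ± 2.49 in Cre + Δpro#3. At day 7 the means were 93.5 ± 5.14, 111 ± 0.719, 83.7 ± 3.19 and 132 ± 1.88 FPKM, with at most 97.8 FPKM in the libraries of ctrl and Cre + NFIA and at least 110.8 FPKM in the others. At day 0 both rescue constructs therefore went with higher Lamc1 than the libraries labelled Cre, by 0.43 ± 0.0364 with full-length NFIA (adjusted p = 1.35e-05) and 0.29 ± 0.0364 with Δpro#3 (adjusted p = 0.000412). At day 7 the sign with full-length NFIA had turned to -0.41 ± 0.0489 (adjusted p = 1.6e-05), whereas with Δpro#3 it was 0.24 ± 0.0489 (adjusted p = 0.0058). Lamc1 rose between days in ctrl (0.26 ± 0.0421, adjusted p = 1.55e-05), in the libraries labelled Cre (0.54 ± 0.0421, adjusted p = 1.08e-09) and in Cre + Δpro#3 (0.49 ± 0.0421, adjusted p = 8.64e-09), and fell in Cre + NFIA (-0.29 ± 0.0421, adjusted p = 2.69e-06). The rise in ctrl was lost with quantile normalization (0.04, adjusted p = 0.562). Between the rescue cell types at day 0, Lamc1 passed at -0.13 ± 0.0364 (adjusted p = 0.0455), which no fit with 1 of the 6 libraries left out repeated (adjusted p from 0.0519 to 0.167).

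Set against each other within a library, the chains shifted in composition. Of the summed FPKM of Lama2, Lama4 and Lama5, Lama4 made up 75.6 ± 1.14% in ctrl, 63.0 ± 1.65% in the libraries labelled Cre, 80.5 ± 2.08% in Cre + NFIA and 63.4 ± 2.19% in Cre + Δpro#3 at day 0. At day 7 its share was 94.5 ± 0.924%, 79.3 ± 3.95%, 97.7 ± 0.179% and 71.2 ± 2.88%. Of the summed FPKM of Lamb1 and Lamb2, Lamb2 made up 52.4 ± 1.39%, 56.1 ± 1.95%, 52.1 ± 0.682% and 62.9 ± 0.668% at day 0, and 21.9 ± 1.85%, 39.9 ± 1.62%, 20.6 ± 0.687% and 48.7 ± 2.69% at day 7. Differentiation thus went with a larger share of Lama4 and a smaller share of Lamb2 in each cell type, and at day 7 the shares in ctrl and Cre + NFIA did not overlap those in the other cell types. The summed α chains were far below the single γ chain at day 0, at 0.233 ± 0.00254 of Lamc1 FPKM in ctrl and 0.0855 to 0.122 as group means in the other cell types. At day 7 they reached 0.846 ± 0.0390 in ctrl and 1.05 ± 0.0219 in Cre + NFIA, but 0.319 ± 0.0330 in the libraries labelled Cre and 0.236 ± 0.0140 in Cre + Δpro#3. No test was made on these ratios.

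**Figure D2:**
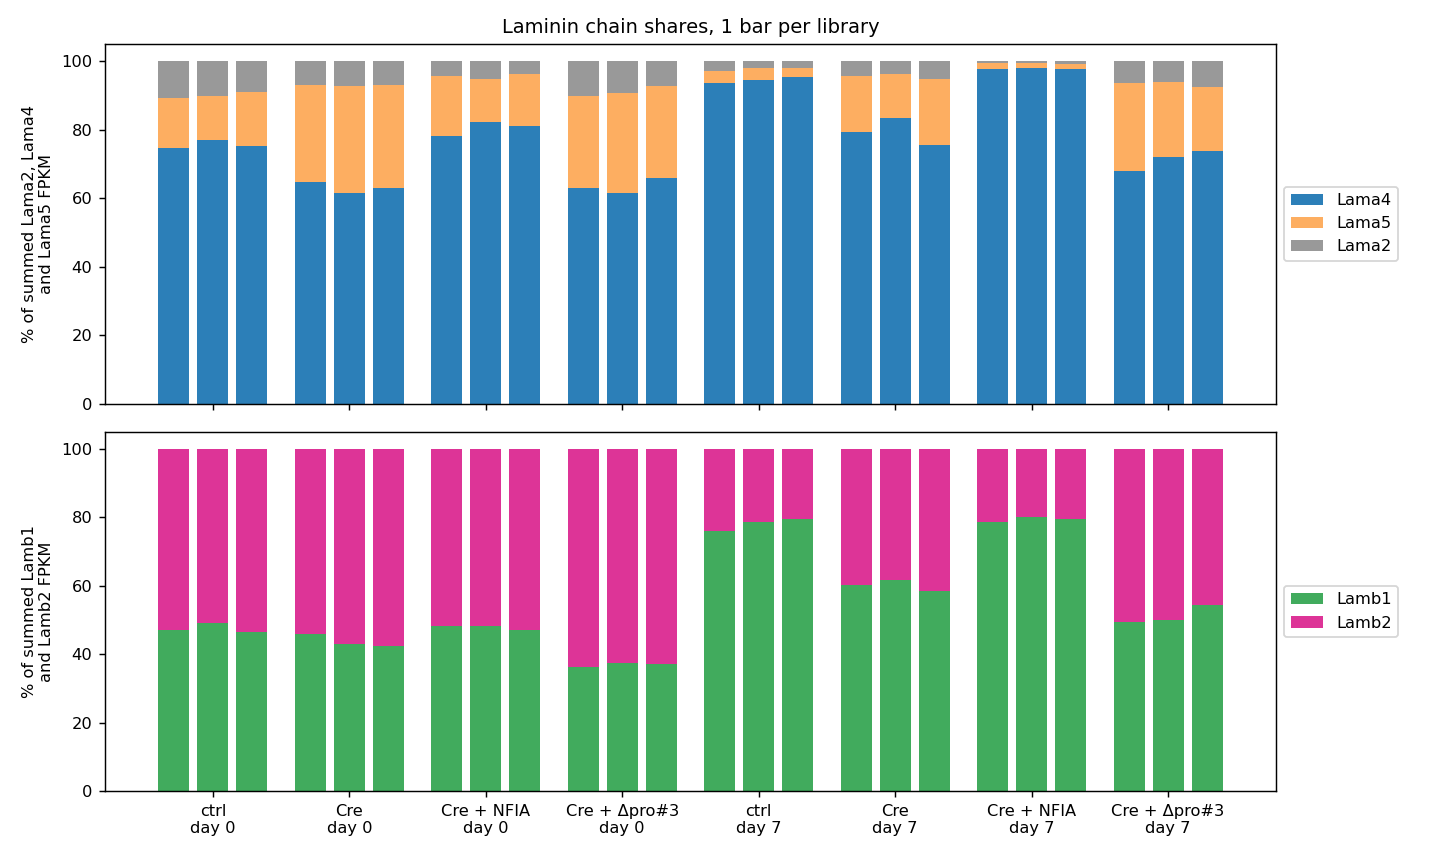
Share of each chain in the summed FPKM of the α chain genes (upper panel) and of the β chain genes (lower panel), in percent, 1 bar per library, grouped by cell type and day. Lama4 holds 93.6% or more of the α chains in ctrl and Cre + NFIA at day 7 and at most 83.3% elsewhere, and Lamb2 holds at most 23.98% of the β chains in those 6 libraries.

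Of the nidogens, which bridge laminin and type IV collagen, Nid2 moved and Nid1 hardly did. Day 0 FPKM of Nid2 was 16.1, 17.9 and 18.3 for ctrl, 9.47, 10.99 and 10.8 in the libraries labelled Cre, 24.8, 24.5 and 22.8 in Cre + NFIA and 7.03, 8.08 and 7.05 in Cre + Δpro#3, so that none of the 4 cell types overlapped another. The libraries labelled Cre were below ctrl (-0.69 ± 0.0765, adjusted p = 0.00118), Cre + NFIA was 2.31-fold above those (1.13 ± 0.0765, adjusted p = 2.68e-06) and Cre + Δpro#3 was below those (-0.45 ± 0.0765, adjusted p = 0.00277). Cre + NFIA was also above ctrl (0.44 ± 0.0765, adjusted p = 0.00134), and Cre + Δpro#3 was 0.307 of Cre + NFIA (-1.58 ± 0.0765, adjusted p = 8.97e-07). By day 7 most of this spread had closed, with FPKM of 26.2, 27.4 and 25.2 for ctrl, 25.5, 27.9 and 23.03 in the libraries labelled Cre, 36.2, 30.7 and 34.8 in Cre + NFIA and 21.4, 26.3 and 24.6 FPKM in Cre + Δpro#3. Ctrl, the libraries labelled Cre and Cre + Δpro#3 overlapped, and Cre + NFIA lay above all of them, by 0.40 ± 0.0893 against the libraries labelled Cre (adjusted p = 0.00204). The rise between days was 0.57 ± 0.0851 in ctrl, 1.21 ± 0.0851 in the libraries labelled Cre, 0.48 ± 0.0851 in Cre + NFIA and 1.58 ± 0.0851 in Cre + Δpro#3, with adjusted p-values from 6.64e-12 to 4.3e-05.

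Nid1 had a group mean of 187 to 237 FPKM in all 8 groups. At day 0 none of the 5 comparisons between cell types passed for Nid1, and the differences lay between -0.03 and 0.07. On day 7 its FPKM was 205, 177 and 193 for ctrl, 235, 221 and 255 in the libraries labelled Cre, 188, 182 and 192 in Cre + NFIA and 227, 214 and 211 FPKM in Cre + Δpro#3. The libraries labelled Cre were above ctrl by 0.30 ± 0.0667 (adjusted p = 0.00198) and Cre + NFIA was below those by -0.34 ± 0.0667 (adjusted p = 0.000865). The difference between the rescue cell types, 0.21 ± 0.0667 (adjusted p = 0.0129), was lost without Cre + Δpro#3 replicate 1 (adjusted p = 0.0522) and with median-of-ratios scaling (0.10, adjusted p = 0.21). Between days Nid1 rose in the libraries labelled Cre (0.24 ± 0.0581, adjusted p = 0.00169); in ctrl the interval was -0.11 to 0.13, but quantile normalization gave a fall of -0.33 (adjusted p = 0.000279). The ratio of Nid1 to Nid2 fell in every cell type between the days, from 10.9 ± 0.747 to 7.33 ± 0.762 in ctrl and from 27.5 ± 1.29 to 9.11 ± 1.32 in Cre + Δpro#3, the cell type with the widest ratio at day 0.

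Hspg2, which encodes the large heparan sulphate proteoglycan perlecan, resembled Lamb2. On day 0 its FPKM was 275, 230 and 297 for ctrl, 241, 290 and 307 in the libraries labelled Cre, 292, 271 and 257 in Cre + NFIA and 268, 269 and 254 FPKM in Cre + Δpro#3, with all 4 cell types overlapping and no comparison passing. At day 7 the libraries labelled Cre held 246, 245 and 254 FPKM and Cre + Δpro#3 249, 266 and 230 FPKM, against 177, 177 and 166 FPKM for ctrl, with Cre + NFIA lowest at 149, 137 and 151 FPKM. The fall between days was -0.61 ± 0.0858 in ctrl (adjusted p = 2.02e-06) and -0.90 ± 0.0858 in Cre + NFIA (adjusted p = 6.6e-09). The intervals in the libraries labelled Cre, -0.34 to 0.02, and in Cre + Δpro#3, -0.27 to 0.09, both held 0, and without Cre replicate 1 of day 0 the former became a fall of -0.26 (adjusted p = 0.0128), as it did with quantile normalization (-0.22, adjusted p = 0.0199). At day 7 Hspg2 was higher in the libraries labelled Cre than in ctrl (0.51 ± 0.0608, adjusted p = 2.15e-05) and lower in Cre + NFIA than in those (-0.77 ± 0.0608, adjusted p = 5.91e-07). The difference between Cre + Δpro#3 and the libraries labelled Cre lay within -0.13 to 0.13.

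Sparc, a secreted collagen-binding protein, was the most abundant member in every group. On day 0 its FPKM was 1499, 1408 and 1485 for ctrl, 1464, 1364 and 1370 in the libraries labelled Cre, 1182, 1200 and 1139 in Cre + NFIA and 1207, 1231 and 1198 FPKM in Cre + Δpro#3. Both rescue cell types were thus below the others at day 0, by -0.25 ± 0.0493 with full-length NFIA (adjusted p = 0.0032) and -0.21 ± 0.0493 with Δpro#3 (adjusted p = 0.0155) against the libraries labelled Cre, the latter lost without Cre + Δpro#3 replicate 1 (0.0584) or replicate 3 (0.0562). On day 7 its FPKM was 1012, 991 and 989 for ctrl, 1415, 1315 and 1448 in the libraries labelled Cre, 873, 883 and 918 in Cre + NFIA and 1438, 1431 and 1236 FPKM in Cre + Δpro#3. The fall between days was -0.55 ± 0.0556 in ctrl (adjusted p = 1.56e-08) and -0.40 ± 0.0556 in Cre + NFIA (adjusted p = 1.95e-06), and the interval in the libraries labelled Cre was -0.12 to 0.11. The rise in Cre + Δpro#3, 0.17 ± 0.0556 (adjusted p = 0.0177), was lost without its replicate 3 of day 0 (0.054) or replicates 1 (0.0936) or 2 (0.0833) of day 7. At day 7 the libraries labelled Cre were above ctrl by 0.48 ± 0.0725 (adjusted p = 0.000136), Cre + NFIA was below those by -0.64 ± 0.0725 (adjusted p = 9.88e-06), and Cre + Δpro#3 differed from those by an interval of -0.19 to 0.13.

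**Figure D3:**
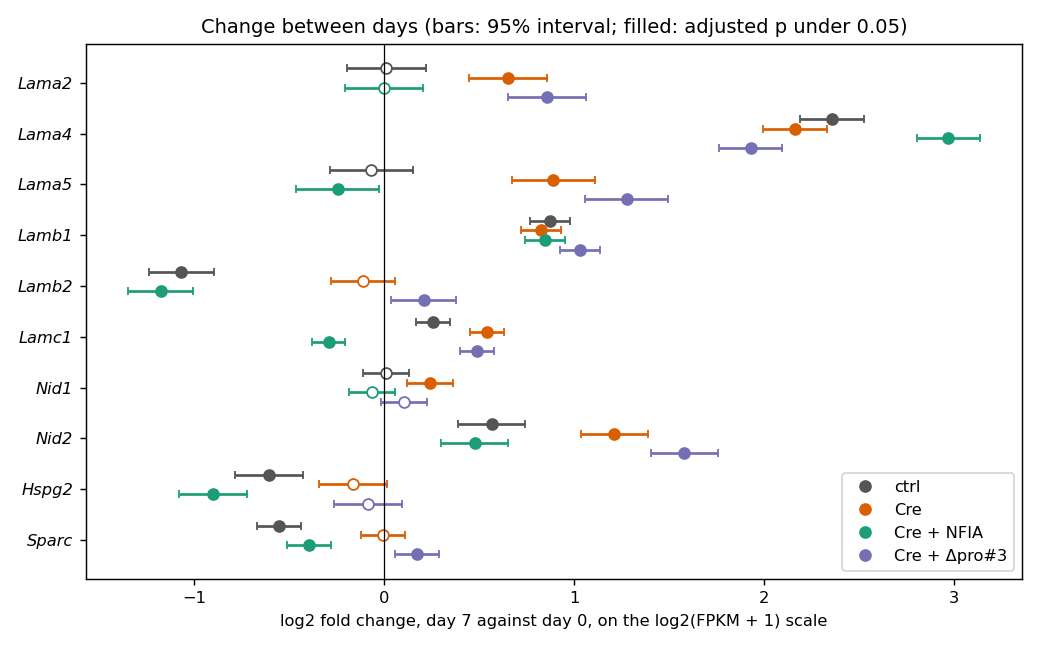
Log2 fold change of day 7 against day 0 on the log2(FPKM + 1) scale (horizontal axis) for each gene in the 4 cell types; bars are 95% intervals and filled points passed at an adjusted p under 0.05. Lama4, Lamb1 and Nid2 are to the right of 0 in all 4 cell types, and Lamb2, Hspg2 and Sparc are to the left of 0 with filled points only in ctrl and Cre + NFIA.

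The 10 genes are next read against all 12640 genes tested. Between days, 7 of 10 passed in ctrl, where 71% of all genes did, 7 in the libraries labelled Cre (background 51.7%, 21.6% as lower), 8 in Cre + NFIA (70.1%) and 8 in Cre + Δpro#3 (41.5%). All 7 that passed in the libraries labelled Cre and all 8 in Cre + Δpro#3 rose, where 30% and 24.5% of all genes passed as higher (17% as lower in the latter), whereas 4 rose and 3 fell in ctrl (32.9% and 38.1%) and 3 rose and 5 fell in Cre + NFIA (31.8% and 38.3%). With quantile normalization the split in ctrl was 3 rising and 4 falling, with Lamc1 no longer passing and Nid1 falling. The same setting gave 7 rising and 1 falling (Hspg2) in the libraries labelled Cre, 3 and 7 in Cre + NFIA, and 9 and 0 in Cre + Δpro#3. Median-of-ratios scaling left 6 rising in Cre + Δpro#3, without Lamb2 (adjusted p = 0.165) and Sparc (0.128). Leaving out 1 library gave 6 to 8 passing in Cre + Δpro#3. Among the falls in Cre + NFIA, that of Lama5 (-0.25 ± 0.105, adjusted p = 0.0433) was lost without replicate 1 of day 0 (0.217) or replicates 1 (0.0528), 2 (0.15) or 3 (0.0563) of day 7. The median log2 fold change over the 10 was 0.01 in ctrl, 0.60 in the libraries labelled Cre, -0.15 in Cre + NFIA and 0.67 in Cre + Δpro#3, against medians of all genes between -0.05 and 0.06. Lama4 alone also passed the 3-fold limit, in each cell type, where 8.5%, 2.73%, 9.08% and 1.46% of all genes did. At day 7 Lama4 and the adipocyte marker sum were both highest in ctrl and Cre + NFIA, and mean Lama4 and the sum were lowest in Cre + Δpro#3. Within the high pair their order differed. Mean Lama4 was 85.7 FPKM in Cre + NFIA and 74.8 FPKM in ctrl, whereas the sum was higher in ctrl. Lama4 of Cre + Δpro#3 overlapped that of the libraries labelled Cre. A link between Lama4 and the marker sum was not tested.

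Between cell types at day 0, 3 of the 10 (Lama2, Lama4 and Nid2), all lower, passed for the libraries labelled Cre against ctrl, where 3.33% of all genes passed, 1.63% as higher and 1.7% as lower. For Cre + NFIA against the libraries labelled Cre, 5 passed, with Lama4, Lamc1 and Nid2 higher and Lama5 and Sparc lower (27.6% of all genes, 14.7% as higher and 12.9% as lower). For Cre + Δpro#3 against the libraries labelled Cre, 4 passed, with Lamc1 higher and Lamb1, Nid2 and Sparc lower (18.3%, with 9.26% higher and 9.02% lower). Between the rescue cell types 4 passed, all lower with Δpro#3 (10.1% of all genes, 4.5% as higher and 5.59% as lower), and for Cre + NFIA against ctrl 6 passed (33.1%, with 18.8% higher and 14.3% lower), with Lamc1 and Nid2 higher and Lama2, Lama4, Lama5 and Sparc lower. The call of Lama5 there (-0.33 ± 0.0911, adjusted p = 0.0176) was lost without ctrl replicate 3 (0.0621) or Cre + NFIA replicates 2 (0.0664) or 3 (0.0594). No member passed the 3-fold limit at day 0, which 0.0237%, 0.538%, 0.142%, 0.19% and 0.435% of all genes did in these 5 comparisons. Nid2, at -1.58 for Δpro#3 against full-length NFIA, fell just short of that limit, and passed it with a pseudocount of 0.1 and with voom.

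At day 7, 8 of the 10 passed for the libraries labelled Cre against ctrl (58.8% of all genes, 36.1% as higher and 22.7% as lower), 6 higher and 2 lower, with a median of 0.28 over the 10 and 0.09 over all genes. Median-of-ratios scaling, which turned the split of all genes from 4563 higher and 2867 lower to 3462 and 3881, left 5 higher and 2 lower, with Lamc1 lost (0.12, adjusted p = 0.0512). For Cre + NFIA against the libraries labelled Cre, 9 passed (63% of all genes, 27% as higher and 35.9% as lower), with Lama4 and Nid2 higher and 7 lower, and medians of -0.53 and -0.06. Under median-of-ratios scaling all genes split 4207 to 3718 in place of 3418 to 4540, and Lamb1 joined those higher (0.15, adjusted p = 0.0294). Lama4, at 1.58, fell just short of the 3-fold limit that 3.63% of all genes passed. For Cre + Δpro#3 against the libraries labelled Cre, 3 passed (17.7%, with 7.7% higher and 10% lower, and 0.625% past 3-fold), Lamb2 and Lamc1 higher and Lama4 lower. Between the rescue cell types all 10 passed, where 69.2% of all genes did (40.4% as higher and 28.9% as lower), with Lama2, Lama5, Lamb2, Lamc1, Nid1, Hspg2 and Sparc higher and Lama4, Lamb1 and Nid2 lower with Δpro#3. Of these, Lama4, Lama5 and Lamb2 also passed the 3-fold limit (6.92% of all genes). Lamb1 (-0.19) was lost with quantile normalization (adjusted p = 0.718) and Nid1 (0.21) with median-of-ratios scaling (0.21). Against ctrl, Cre + NFIA differed in 5 (18%, with 8.81% higher and 9.15% lower), with Nid2 higher and Lama2, Lama5, Lamc1 and Hspg2 lower, and 2 to 5 passed when 1 library was left out. The calls of Lamc1 (adjusted p = 0.0449) and Nid2 (0.0177) in that comparison were both lost without ctrl replicate 1 (0.149 and 0.0524), ctrl replicate 3 (0.115 and 0.0594), Cre + NFIA replicate 1 (0.0849 and 0.0748) or replicate 3 (0.0684 and 0.0617), that of Lamc1 also without Cre + NFIA replicate 2 (0.165), and that of Hspg2 (0.0147) without ctrl replicate 1 (0.0528) or Cre + NFIA replicate 2 (0.0664). The comparisons of a rescue cell type with the libraries labelled Cre and of those with ctrl share the libraries labelled Cre, so their opposite signs are not independent of each other.

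**Figure D4:**
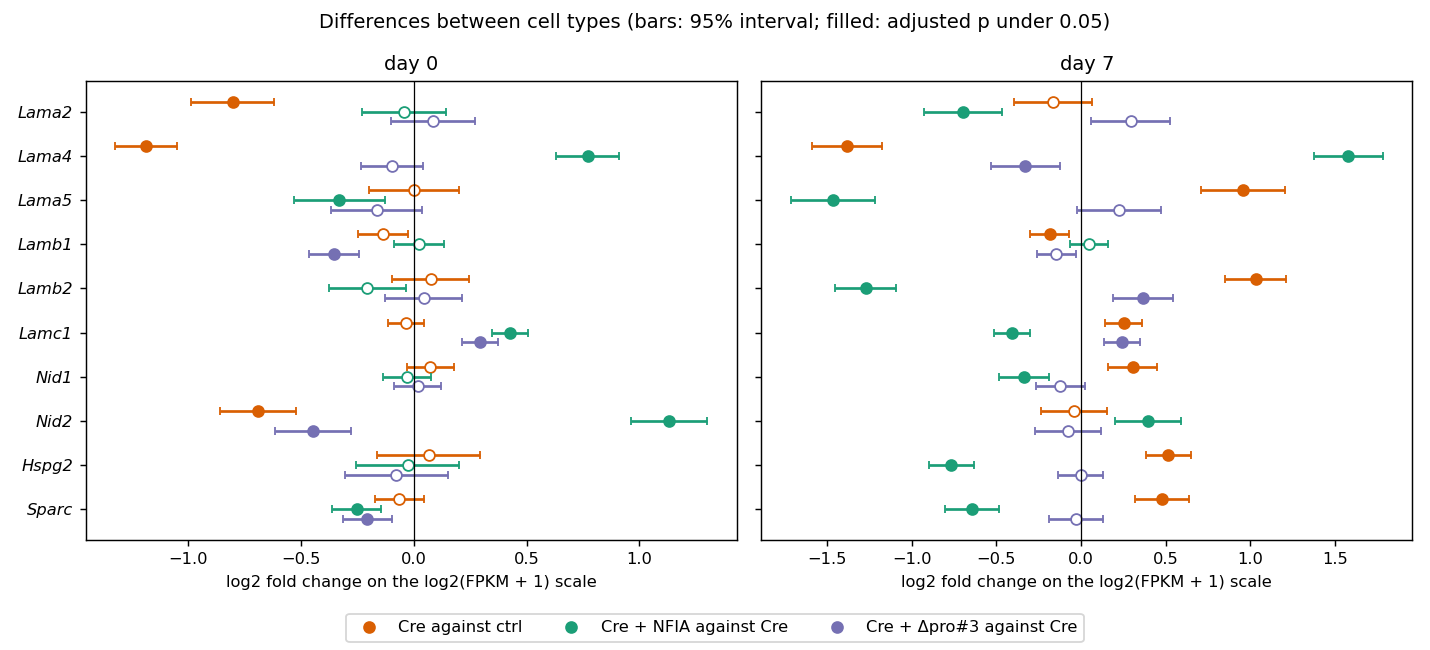
Log2 fold changes on the log2(FPKM + 1) scale (horizontal axis) of each gene for 3 comparisons between cell types at day 0 (left) and day 7 (right); bars are 95% intervals, and filled points passed at an adjusted p under 0.05. At day 7 the points for Cre against ctrl and for Cre + NFIA against Cre, which share the Cre libraries, are both filled and on opposite sides of 0 for Lama4, Lama5, Lamb2, Lamc1, Nid1, Hspg2 and Sparc, and on opposite sides with 1 of the 2 filled for Lamb1 and Nid2, and the points for Cre + Δpro#3 against Cre lie at most 0.36 from 0.

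Hspg2, Lama5, Lamb2, Lamc1, Nid1 and Sparc, 6 of the 10, shared a pattern at day 7: each was higher in the libraries labelled Cre than in ctrl, lower in Cre + NFIA than in the libraries labelled Cre, and higher in Cre + Δpro#3 than in Cre + NFIA. Singly, 36.1%, 35.9% and 40.4% of all genes passed in these directions. The comparisons share libraries, and the share of genes passing them all was not counted. With median-of-ratios scaling Lamc1 was lost in the first comparison (limma adjusted p = 0.0512) and Nid1 in the last (0.21). Promoters, 250 bases before to 50 bases after the annotated start, are printed for Hspg2, Lama5, Lamb2 and Sparc, the 4 with the largest difference between the rescue cell types among those of the 6 with an entry in the table used, together with that of Lamb1, the β chain outside the pattern. These were picked after their values were seen, and are shown because NFI proteins bind DNA at the core motif TTGGC. The sequences are from RefSeq on GRCm38.p6, in a table that matched 7 of the 10 genes; those of Lama4, Lamc1 and Nid2 were not analysed here. Capitals mark every TTGGC or its reverse complement GCCAA and every GC box, GGGCGG or CCGCCC; each line reads 5′ to 3′ along the gene's strand.
Hspg2, chr4:137468553-137468852, plus strand: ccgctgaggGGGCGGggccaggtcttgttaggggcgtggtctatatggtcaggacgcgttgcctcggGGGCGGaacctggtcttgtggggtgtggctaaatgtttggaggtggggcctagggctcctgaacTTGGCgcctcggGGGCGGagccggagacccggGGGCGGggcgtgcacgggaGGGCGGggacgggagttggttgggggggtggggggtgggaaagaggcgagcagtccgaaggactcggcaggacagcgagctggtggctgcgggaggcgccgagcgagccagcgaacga
Lama5, chr2:180225810-180226109, minus strand: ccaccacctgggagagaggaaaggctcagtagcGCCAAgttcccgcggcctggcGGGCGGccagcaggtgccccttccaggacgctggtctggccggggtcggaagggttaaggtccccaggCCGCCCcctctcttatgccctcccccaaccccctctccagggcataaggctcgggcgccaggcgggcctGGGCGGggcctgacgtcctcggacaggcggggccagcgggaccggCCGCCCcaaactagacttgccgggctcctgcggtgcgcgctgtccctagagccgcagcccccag
Lamb2, chr9:108479612-108479911, plus strand: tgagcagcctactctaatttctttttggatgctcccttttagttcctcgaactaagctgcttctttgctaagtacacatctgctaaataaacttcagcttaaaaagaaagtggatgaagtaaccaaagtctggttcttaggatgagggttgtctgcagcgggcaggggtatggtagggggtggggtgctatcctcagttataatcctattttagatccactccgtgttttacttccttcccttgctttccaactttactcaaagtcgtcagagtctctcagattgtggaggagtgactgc
Sparc, chr11:55420031-55420330, minus strand: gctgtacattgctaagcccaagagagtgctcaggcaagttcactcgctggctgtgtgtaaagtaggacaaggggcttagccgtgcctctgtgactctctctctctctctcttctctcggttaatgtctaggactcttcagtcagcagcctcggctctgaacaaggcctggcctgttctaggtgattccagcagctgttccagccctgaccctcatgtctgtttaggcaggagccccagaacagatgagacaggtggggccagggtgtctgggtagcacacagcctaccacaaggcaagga
Lamb1, chr12:31265043-31265342, plus strand: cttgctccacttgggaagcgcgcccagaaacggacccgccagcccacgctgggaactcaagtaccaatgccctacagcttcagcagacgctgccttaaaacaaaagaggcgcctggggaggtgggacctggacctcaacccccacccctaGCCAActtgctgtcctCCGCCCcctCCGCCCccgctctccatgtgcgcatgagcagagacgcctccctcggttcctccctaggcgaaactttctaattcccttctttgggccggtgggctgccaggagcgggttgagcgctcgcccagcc
The core motif occurred 1 time each in the promoters of Hspg2, Lama5, Lamb1 and Lama2 and in neither that of Lamb2 nor those of Sparc and Nid1, so 4 of the 7 held it, against 46.7% of all 32851 promoters of this length. The GC box was found 5 times in Hspg2, 4 times in Lama5, 2 times in Lamb1 and 1 time each in Lama2 and Nid1, and 35.7% of all promoters held at least 1. The full NFI palindrome (TTGGC, then 5 bases of any kind, then GCCAA), the TATA box TATAAA and a direct repeat of AGGTCA spaced by 1 base (DR1), searched on both strands, were in none of the 7, with 0.0365%, 13.6% and 0.0396% of all promoters holding them. G and C made up 70.3% of the Hspg2, 72.7% of the Lama5, 63.7% of the Lamb1, 55.3% of the Sparc and 44% of the Lamb2 window. A match is only a run of letters, and these windows hold no measurement of binding.

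Lama4 on one side and Lamb2 and Hspg2 on the other separated the day 7 libraries into the same sets. The 6 libraries of ctrl and Cre + NFIA had Lama4 of 71.7 FPKM or more with Lamb2 of 33.2 FPKM or less and Hspg2 of 177 FPKM or less. The 6 libraries of the other cell types had Lama4 of 32.4 FPKM or less with Lamb2 of 57.6 FPKM or more and Hspg2 of 230 FPKM or more. The same 2 sets stood apart in the adipocyte marker sum, 19810 FPKM or more against 9186 FPKM or less. Lama5, Lamc1, Nid1 and Sparc also split the day 7 libraries into these sets. Such separation was common at day 7. Of all genes tested, 64% did not overlap between the libraries labelled Cre and ctrl. The share was 70.2% between Cre + NFIA and the libraries labelled Cre, and 72.8% between the rescue cell types. The share of genes that split all day 7 libraries this way was not counted.

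**Figure D5:**
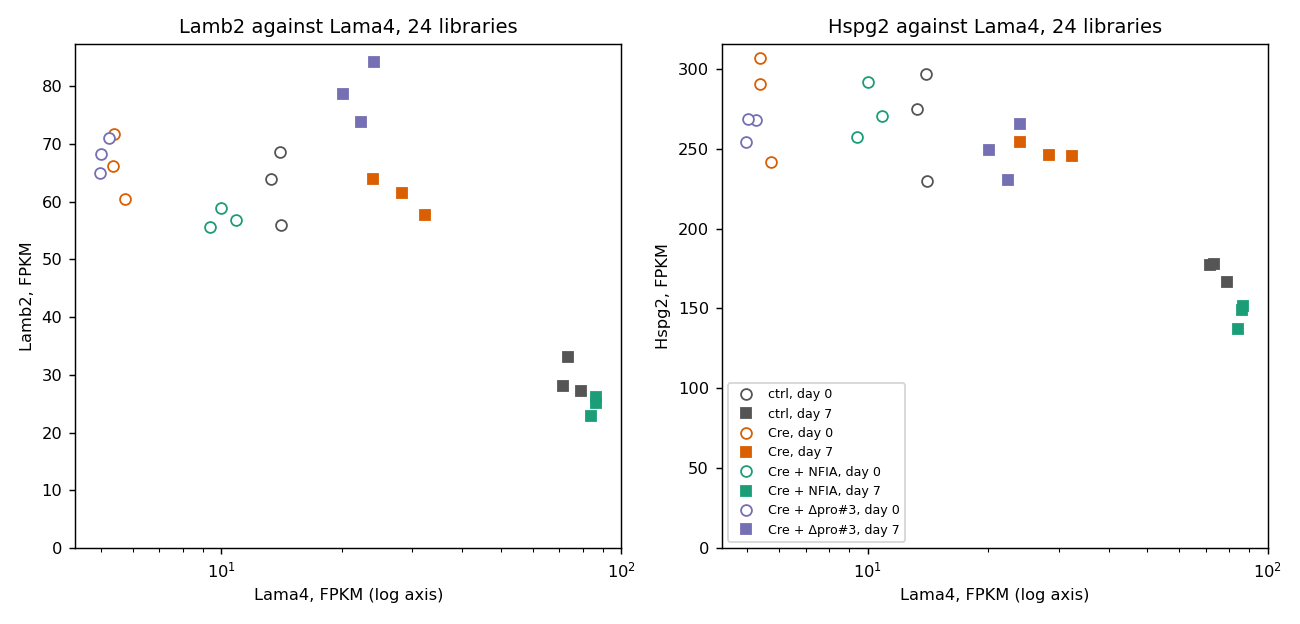
FPKM of Lamb2 (left) and Hspg2 (right) against FPKM of Lama4 (horizontal log axis) in 24 libraries; colours are cell types, open circles day 0, filled squares day 7. At day 7 the ctrl and Cre + NFIA libraries lie at the lower right, with Lamb2 at 22.8 to 33.2 FPKM, apart from those labelled Cre and Cre + Δpro#3 at 57.6 to 84.2 FPKM.

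The difference between cell types was itself compared between the days. For the libraries labelled Cre against ctrl it was higher at day 7 in 8 of the 10 genes and lower in none (49.2% of all genes passed, 29.7% as higher), and Lama4 and Lamb1 did not pass. With median-of-ratios scaling 6 were higher and 1 lower, with Nid1 (adjusted p = 0.31) and Hspg2 (0.0555) lost and Lama4 lower. It was 0.96 ± 0.116 for Lamb2 and 0.96 ± 0.149 for Lama5, and smallest among those that passed for Nid1, 0.23 ± 0.0822 (adjusted p = 0.0255), which was lost without Cre replicate 2 of day 0 (0.072), ctrl replicate 2 of day 7 (0.087) or Cre replicate 3 of day 7 (0.0854). For Cre + NFIA against the libraries labelled Cre, 9 of 10 passed (48.9% of all genes, 18.8% as higher and 30.1% as lower), with Lama4 higher and 8 lower (7 under median-of-ratios scaling, without Nid1), and Lamc1 changed sign between the days (-0.83 ± 0.0596, adjusted p = 9.03e-10). For Cre + Δpro#3 against the libraries labelled Cre, Lamb1 (0.21 ± 0.0719, adjusted p = 0.0497) and Nid2 (0.37 ± 0.12, adjusted p = 0.0387) passed as higher (18.2% of all genes, 7.79% as higher), and between 0 and 3 of the 10 genes passed when 1 library was left out: Lamb1 was lost in 10 of 12 such fits (adjusted p up to 0.135) and Nid2 in 8 of 12 (up to 0.0994).

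Other genes of the basement membrane and its receptors were counted from lists of 42 genes, of which 27 passed the filter. Of the 6 basement membrane collagens tested, 3 rose and 2 fell between days in ctrl, 4 and 2 in the libraries labelled Cre, 3 and 2 in Cre + NFIA, and 4 and none in Cre + Δpro#3, with medians of 1.24, 1.93, 1.32 and 1.73. Over all genes tested, 32.9% rose and 38.1% fell in ctrl, 30% and 21.6% in the libraries labelled Cre, 31.8% and 38.3% in Cre + NFIA and 24.5% and 17% in Cre + Δpro#3. Col4a1 and Col4a2, the core chains of type IV collagen, rose in all 4 cell types, Col4a1 from 52.8 ± 1.45 to 373 ± 21.3 FPKM in ctrl and from 38.8 ± 1.78 to 236 ± 20.7 FPKM in Cre + Δpro#3. At day 7 Col4a1 was lower in Cre + Δpro#3 than in the libraries labelled Cre (-0.49 ± 0.0785, adjusted p = 0.00158), whereas Cre + NFIA against those gave -0.07 ± 0.0785 (adjusted p = 0.49). Col4a2 was lower than in the libraries labelled Cre in both, by -0.44 ± 0.085 with Δpro#3 (adjusted p = 0.00442) and -0.40 ± 0.085 with full-length NFIA (adjusted p = 0.00129). Of the 6 collagens, 4 were lower in each of these comparisons (10% and 35.9% of all genes), with 1 higher for full-length NFIA. Col4a5, another type IV chain, fell in ctrl from 36.7 ± 2.005 to 10.6 ± 1.47 FPKM (-1.71 ± 0.0715, adjusted p = 1.42e-14) and was at 28.2 ± 0.443 and 25.7 ± 2.06 FPKM in Cre + Δpro#3. Col15a1, a collagen that lies beneath the basement membrane, had 210 ± 12.9 FPKM in ctrl, 64.3 ± 13.2 in the libraries labelled Cre, 168 ± 11.2 in Cre + NFIA and 19.8 ± 5.86 FPKM in Cre + Δpro#3 at day 7, after 0.617 to 2.94 FPKM as group means at day 0. Its level thus had the same order of cell types as the adipocyte marker sum.

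Of the 6 laminin receptors tested, 3 rose and 2 fell between days in ctrl, 4 and 1 in the libraries labelled Cre, 3 and 3 in Cre + NFIA and 5 and 1 in Cre + Δpro#3, with medians of 0.06, 0.42, -0.12 and 0.61. The shares over all genes were 32.9% and 38.1%, 30% and 21.6%, 31.8% and 38.3%, and 24.5% and 17%. Itgb1, the β1 subunit common to these integrins, fell in ctrl from 129 ± 18.6 to 88.0 ± 7.10 FPKM (-0.54 ± 0.0898, adjusted p = 1.84e-05) and rose in Cre + Δpro#3 from 122 ± 4.48 to 155 ± 12.2 FPKM (0.34 ± 0.0898, adjusted p = 0.00468). Itga6, the α6 integrin subunit that binds laminin, went from 0.444 ± 0.122 to 37.9 ± 2.12 FPKM in ctrl, and at day 7 was at 18.6 ± 4.52 in the libraries labelled Cre, 31.4 ± 0.751 in Cre + NFIA and 5.98 ± 1.64 FPKM in Cre + Δpro#3. Itga7, another laminin-binding α subunit, was at 24.6 ± 1.59, 10.7 ± 4.88, 27.8 ± 1.14 and 2.67 ± 0.839 FPKM at day 7 and under 1 FPKM as a group mean at day 0. Itga3, the α3 subunit, went the other way, from 20.6 ± 1.57 to 2.90 ± 0.0720 FPKM in Cre + NFIA, with 9.42 ± 1.03 FPKM left in Cre + Δpro#3 at day 7. Each of the 3 passed in the comparison of the rescue cell types at day 7, Itga6 at -2.24 ± 0.177 (adjusted p = 3.02e-07), Itga7 at -3.00 ± 0.258 (adjusted p = 6.35e-07) and Itga3 at 1.41 ± 0.108 (adjusted p = 2.32e-07). Dag1, which encodes dystroglycan, lay between 31.4 and 40.7 FPKM as group means.

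Of 11 other basement membrane proteins tested, 7 were higher and 1 lower in the libraries labelled Cre than in ctrl at day 7, and 1 was higher and 8 lower in Cre + NFIA than in those, with medians of 0.71 and -1.32. Over all genes tested, 36.1% were higher and 22.7% lower in the first comparison and 27% and 35.9% in the second, with medians of 0.09 and -0.06. Fbln2, a fibulin that binds nidogen and perlecan, followed Lamb2, with 146 ± 14.3 FPKM in ctrl, 316 ± 30.2 in the libraries labelled Cre, 122 ± 6.79 in Cre + NFIA and 344 ± 17.8 FPKM in Cre + Δpro#3 at day 7. Fbln1, a related fibulin, had 60.8 ± 4.61, 91.4 ± 6.27, 34.7 ± 3.50 and 105 ± 5.36 FPKM. The netrins, laminin-related proteins, followed too, Ntn4 with 3.21 ± 0.468, 9.66 ± 1.52, 3.23 ± 0.176 and 14.5 ± 1.61 FPKM and Ntn1 3-fold or more higher in Cre + Δpro#3 than in Cre + NFIA (1.64 ± 0.0781, adjusted p = 8e-09). Npnt, which encodes the integrin ligand nephronectin, was low in both rescue cell types before differentiation, with 0.716 ± 0.00885 FPKM for full-length NFIA and 1.41 ± 0.160 FPKM for Δpro#3, against 7.91 ± 1.02 FPKM in the libraries labelled Cre (-2.37 ± 0.0909, adjusted p = 6.69e-08, and -1.88 ± 0.0909, adjusted p = 8.98e-07). Smoc1, a calcium-binding basement membrane protein related to Sparc, had the opposite order, with 26.5 ± 1.59, 8.28 ± 3.19, 27.2 ± 0.788 and 1.90 ± 0.937 FPKM. Its relative Smoc2 was at 3.34 ± 0.183, 13.0 ± 1.73, 1.76 ± 0.0850 and 9.07 ± 0.495 FPKM. Both relatives of Sparc that were tested, Fstl1 and Sparcl1, were higher in the libraries labelled Cre than in ctrl at day 7, Fstl1 by 1.01 ± 0.0859 (adjusted p = 2.21e-06) and Sparcl1 by 0.96 ± 0.0627 (adjusted p = 5.54e-07), and lower in Cre + NFIA than in those, by -1.72 ± 0.0859 (adjusted p = 2.32e-08) and -1.33 ± 0.0627 (adjusted p = 1.61e-08). Of the other laminin chains, Lamb3 rose in ctrl from 0.125 ± 0.0314 to 3.44 ± 0.186 FPKM (1.98 ± 0.134, adjusted p = 2.69e-11) and was at 0.269 ± 0.0486 FPKM in Cre + Δpro#3 at day 7.

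The genes whose log2(FPKM + 1) values were most like each member over the 24 libraries are given as a description, since libraries of a group share their condition. Dapk1 was most like Lama4 (Pearson r = 0.984) and Aoc3 next (0.982). Lamb2 was most like Dlg5 and Mkl1 (both 0.985), Hspg2 like Arhgap23 (0.98) and Tnrc18 (0.979), Sparc like Fam129a (0.972) and Sfrp1 (0.971), Lama5 like Nkd2 (0.961) and Col12a1 (0.958), and Lamb1 like Ptk2b (0.975). Nid2 was most like Aldh1a1 (0.931) and Eln (0.922), Lamc1 like Gorasp2 (0.938) and Pde10a (0.933), Lama2 like Tagln (0.918) and Actg2 (0.879), and Nid1 like Ralgps2 (0.9) and Huwe1 (0.883).

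In mm9 coordinates of the GENCODE annotation, the genes lay as follows: Lama4 on chromosome 10 from 38685321 to 38829994 on the plus strand, Lamb2 on chromosome 9 from 108382193 to 108392861 on the plus strand, Lama5 on chromosome 2 from 179911078 to 179960564 on the minus strand, Nid2 on chromosome 14 from 20570479 to 20631009 on the plus strand and Hspg2 on chromosome 4 from 137024634 to 137126545 on the plus strand. Lama2 lay on the same chromosome as Lama4, from 26701094 to 27336748 on the minus strand. Each value covers the whole gene, and isoforms were not separated.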

How the data were processed

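RNA-seq values of 24 libraries, 8 groups of 3, were read from the deposited files. Per the study's methods, stranded TruSeq mRNA libraries were aligned to mm9 with STAR 2.5.3a, uniquely mapped reads were counted per gene on the matched strand, and the authors divided them by gene length and library total, so the deposited values are FPKM. All values of all libraries were whole multiples of what 1 read is worth within 0.05 of a read (100%), which gave 7.73 M to 14.6 M reads a library. A difference in FPKM moves with what other genes take of the library.

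A gene entered the tests if 3 or more of the 24 libraries had an FPKM of 1 or above (12640 of 24825). Tests were made on log2(FPKM + 1) with limma 3.58.1 (R 4.3.3; limma-trend, Benjamini-Hochberg over all genes tested), with the 12 libraries of a day for comparisons between cell types and all 24 for days and for differences between days, 17 comparisons in all. A gene passed at an adjusted p under 0.05; the 3-fold limit was on the same scale. Fold changes of low genes are understated by the pseudocount of 1. The test was checked on simulated data. Replicates of a group differed by more than counting noise (chi-square per degree of freedom 2.22 to 16.5 over 24 pairs). Genes named were the 10 members, of each list the 2 highest and any past 3-fold in a comparison, and for likeness the 2 genes of highest r; 2 genes that this rule names are not reported here. The members and lists were chosen with earlier results of these data known. Alternatives were pseudocounts of 0.1 and 5, no filter, median-of-ratios and quantile scaling, a replicate block, voom on the recovered reads, and leaving out each library.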

Additional observations from a re-analysis of the deposited data

Results flagged for a closer look

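A test of the difference itself found the same comparison between cell types unequal at day 0 and day 7 in 19 cases, each given as the log2 difference at day 7 minus that at day 0. For the libraries labelled Cre against ctrl it was 0.64 ± 0.14 for Lama2, 0.96 ± 0.149 for Lama5, 0.96 ± 0.116 for Lamb2, 0.29 ± 0.0596 for Lamc1, 0.23 ± 0.0822 for Nid1, 0.65 ± 0.12 for Nid2, 0.45 ± 0.121 for Hspg2 and 0.54 ± 0.0786 for Sparc (SE, limma adjusted p from 1.37e-06 to 0.0255). For Cre + NFIA against the libraries labelled Cre it was -0.65 ± 0.14 for Lama2, 0.81 ± 0.113 for Lama4, -1.13 ± 0.149 for Lama5, -1.07 ± 0.116 for Lamb2, -0.83 ± 0.0596 for Lamc1, -0.30 ± 0.0822 for Nid1, -0.74 ± 0.12 for Nid2, -0.74 ± 0.121 for Hspg2 and -0.39 ± 0.0786 for Sparc (adjusted p from 9.03e-10 to 0.00417). For Cre + Δpro#3 against the libraries labelled Cre it was 0.21 ± 0.0719 for Lamb1 and 0.37 ± 0.12 for Nid2 (adjusted p 0.0497 and 0.0387). These comparisons share the libraries labelled Cre.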

How the results depend on the processing

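Over the 10 genes and 17 comparisons, 1140 of 1190 values under the 7 alternatives kept their direction and their side of the threshold, 30 lost the call, 19 gained it and 1 turned: Nid1 in ctrl between days, 0.01 and not passing, was -0.33 with quantile normalization (adjusted p = 0.000279). Leaving out 1 library kept 1125 of 1200 values, with 63 calls lost, 12 gained and none turned.

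Counts past 3-fold moved by more than 1.5 times as follows. With a pseudocount of 0.1 they were 1 for Cre + Δpro#3 against Cre + NFIA at day 0 (0 before), 2 for Cre + NFIA against Cre at day 7 (0) and 2 for Cre + Δpro#3 between days (1). With a pseudocount of 5 they were 1 for Cre + Δpro#3 against Cre + NFIA at day 7 (3) and 0 for Cre + Δpro#3 between days. With median-of-ratios scaling Cre + NFIA against Cre at day 7 had 1. With voom on the recovered reads they were 1 for Cre + Δpro#3 against Cre + NFIA at day 0, 2 for Cre + NFIA against Cre at day 7, 3 for Cre + Δpro#3 between days, and 1 each for Cre + NFIA against ctrl at day 0 and day 7 (0).

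The count of 2 for the difference between days of Cre + Δpro#3 against Cre was 0 with a pseudocount of 5, with no filter and with median-of-ratios scaling, and 4 with quantile normalization. With the replicate number as a block it was 1; the block moved no other count by more than 1.5 times. Same-numbered libraries did not deviate together (mean correlation -0.159 to 0.056, no comparison with every pair over 0.1). That cannot show that same-numbered libraries shared no culture or batch, which the labels do not say.

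Without 1 library, the range was 0 to 3 for that count, 2 to 5 for Cre + NFIA against ctrl at day 7, and for 3-fold counts 0 to 1 for Cre + Δpro#3 against Cre + NFIA at day 0, 0 to 1 for Cre + NFIA against Cre at day 7 and 1 to 2 for Cre + Δpro#3 between days. The cause of these moves was not tested.

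Median-of-ratios scaling shifted the median of all genes by -0.105 for Cre against ctrl at day 7 and in its difference between days, and by 0.107 for Cre + NFIA against Cre in its difference between days; quantile normalization shifted it by -0.102 for Cre between days. The split of all genes into higher and lower moved by over 10 percentage points with median-of-ratios scaling also in the differences between days (Cre against ctrl 3753 and 2471 to 2896 and 3204; Cre + NFIA against Cre 2378 and 3805 to 3131 and 2931), and with quantile normalization between days in Cre (3795 and 2736 to 2869 and 3768) and Cre + Δpro#3 (3101 and 2146 to 2416 and 2622), for Cre against ctrl at day 0 (206 and 215 to 123 and 206) and in the difference between days of Cre + Δpro#3 against Cre (985 and 1311 to 1289 and 1125). Depth limits Lama2, which had 46 to 287 reads a library.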
